A study of Mus musculus with 8 samples.

Results

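Oxidative phosphorylation is carried out by complexes I to V of the inner mitochondrial membrane, and this account follows the genes of the nucleus that encode their subunits and some of their assembly factors. Members were the genes of the count table whose symbol begins with Nduf, Uqcr, Atp5 or Cox followed by a digit of 4 to 8, together with Sdha, Sdhb, Sdhc and Sdhd. The rule used no measured value and found 84 of the 11354 genes in the table, with 45 in complex I, 4 in complex II, 8 in complex III, 11 in complex IV and 16 in complex V. Members were assigned to complexes by symbol alone. All 84 passed the filter on low counts, and they lay on 19 chromosomes, 3 of them on the X chromosome. Cox4i2, Cox6a2, Cox6b2, Cox7a1, Ndufa4l2 and Atp5g2, paralogues of members, were not analysed here.

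Poly(A) RNA came from mouse CD4+ T cells recovered from RAG-/- hosts, which lack lymphocytes with rearranged receptors and had received the cells by adoptive transfer. The donors were Nlrp6-/- in 4 libraries and wild type in 4 libraries, the strain background was given as Black6 throughout, and every host of either group carried the same RAG-/- genotype. Libraries are named KO or WT with the host number of the label (1, 2, 4 and 5). The tissue is given as host spleen in 1 field of the labels and as colonic lamina propria in the protocol and design, and was not settled here. The age of the mice, the time after transfer and whether a host number stands for the same mouse in both groups are not stated, so the spread behind each p-value is that of libraries and may be technical.

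Complex I passes electrons from NADH, and complex II those from succinate, to ubiquinone. Complex III hands them on to cytochrome c and complex IV to oxygen, while complexes I, III and IV pump protons whose return drives complex V, the ATP synthase. T cells are known to raise both respiration and glycolysis after activation, and complex II is also an enzyme of the tricarboxylic acid cycle.

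Nlrp6, the targeted gene and a sensor of the innate immune system, went against the labels. It had 487, 329, 477 and 648 counts in KO 1, 2, 4 and 5, against 5, 3, 3 and 8 counts in WT 1, 2, 4 and 5. The log2 fold change, KO over WT by label, was 6.70 ± 0.32 (SE; edgeR adjusted p = 4.07e-06). Directions below are therefore those of the labels, and KO and WT stand for the libraries labelled knock-out and wild type. Totals ran from 35198192 to 39325381 counts in KO and from 38003997 to 40310721 in WT libraries. Of the T cell identity genes, 13 of 14 were measured and summed to 9054 to 9512 CPM, counts scaled to library size, in KO and 9232 to 10714 CPM in WT libraries, with 0 called higher and 2 lower. Markers of other cells also moved with the label. Of 19 myeloid markers measured, 16 were called higher in KO libraries, with a median log2 fold change of 3.36 over the 19. Csf1r, the receptor of a macrophage growth factor, averaged 67.7 CPM in KO and 4.38 CPM in WT libraries. The 19 summed to 739 to 1545 CPM in KO and 435 to 576 CPM in WT libraries, sums that include Ccr2, a chemokine receptor also known from T cells, which was not called (456 CPM in KO, 428 CPM in WT). The other 18 summed to 328 to 1030 CPM in KO and 62.6 to 111 CPM in WT libraries. Of 11 listed dendritic cell and MHC class II genes 8 were measured, and 6 were called higher (470 to 1356 CPM in KO, 65.0 to 113 CPM in WT). Itgax and Zbtb46 were not called (edgeR adjusted p = 0.405 and 0.833). Of 12 listed neutrophil genes only 6 were measured, and these 6 were called higher (55.9 to 139 CPM in KO, 12.5 to 20.4 CPM in WT). The rest of both lists was not analysed here. Of 7 measured natural killer and innate lymphoid genes 2, Tyrobp and Fcer1g, were called higher. Klrb1c, Klrb1b, Klrk1, Kit and Il22 were not called (edgeR adjusted p = 0.966, 0.582, 0.794, 0.0928 and 0.164). None of 5 epithelial, 9 stromal and 2 red cell genes was called, and B cell markers were not analysed here. The part of these cells in the results below was not tested, and in such bulk samples fewer cells of a type and less RNA per cell cannot be told apart.

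Of the nuclear genes of oxidative phosphorylation, Sdha was lower in KO libraries, and no other member passed the test. The 84 members summed to 5591, 5721, 5345 and 5957 CPM in KO 1, 2, 4 and 5, against 5791, 5655, 5702 and 5480 CPM in WT 1, 2, 4 and 5. The KO values lay on both sides of the WT values, and the lowest and highest of the 8 sums were those of KO 4 and KO 5. The mean was 5653 ± 255 CPM in KO and 5657 ± 131 CPM in WT libraries (SD, n = 4 each), a ratio of 0.999. Each gene was tested in 1 edgeR quasi-likelihood fit over the whole table, with a Benjamini-Hochberg adjusted p below 0.05 as the call. No member was called higher in KO libraries, where 6.20% of all genes were, and 1 member, Sdha, was called lower (1.19%), where 3.84% of all genes were. At an unadjusted p below 0.05 there were 3 members, Sdha, Ndufa7 and Atp5o, where 23.5% of all genes passed. The 4 KO and 4 WT values did not overlap in 2 members, Sdha and Ndufa7, both lower in KO (7.37% of all genes), and in 0 members that were higher (8.60% of all genes).

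Members' log2 fold changes ran from -0.21 to 0.17 with a median of 0.013, beside a median of -0.0026 over all genes. The sign was positive in 48 members and negative in 36. Scaled to total library size alone, the median was -0.0038 for the members and -0.02 for all genes, with 41 members positive and 43 negative, so the members' median has no settled sign. The median absolute log2 fold change was 0.041 for the members and 0.089 for all genes. The members' fold changes were also measured more tightly, with a median standard error of 0.059 against 0.076 for all genes. Members were more abundant as well, with a median of 53.0 RPKM, counts scaled to gene length as well as library size, against 10.3 RPKM for all genes, and their lowest and highest counts in any library were 71 and 29417. For 83 of the 84 members (98.8%) the 95% interval of the fold change lay within 1.5-fold in either direction, where 80.3% of all genes had such an interval. The exception was Ndufaf6, at -0.40 to 0.65 on the log2 scale.

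**Figure D1:**
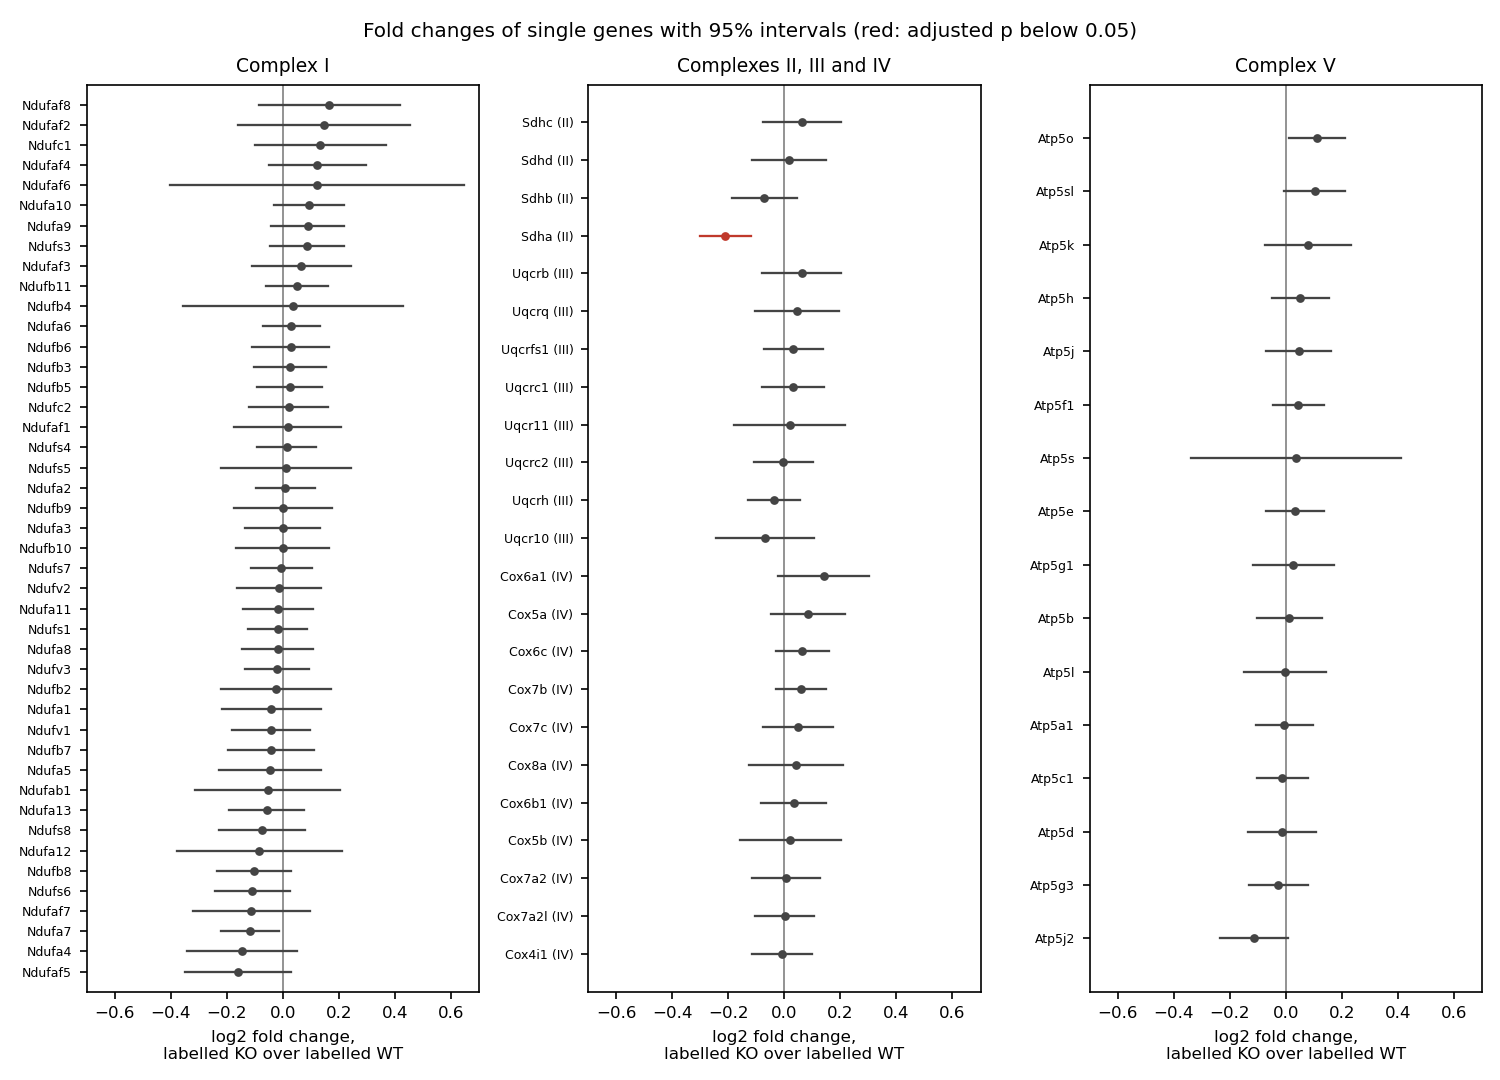
Log2 fold change of KO over WT libraries for 83 of the 84 members with their 95% intervals, by complex. Sdha, at -0.21, is the member called, in red, and every other member shown lies between -0.16 and 0.17.

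Sdha, the flavoprotein subunit that oxidises succinate in complex II, had 205, 221, 206 and 206 CPM in KO 1, 2, 4 and 5, against 238, 246, 249 and 235 CPM in WT 1, 2, 4 and 5. All 4 KO values lay below all 4 WT values, and KO 2 was the highest of the KO values. The mean was 209 ± 7.55 CPM in KO and 242 ± 6.48 CPM in WT libraries (SD, n = 4 each). The log2 fold change was -0.21 ± 0.04 (SE, 95% interval -0.30 to -0.12), or 0.865-fold, with an edgeR adjusted p of 0.00870. The call held without any 1 of the 8 libraries. A code in the sample descriptions is 7 in 6 libraries and 8 in KO 4 and KO 5, and no WT library has code 8, so no comparison within code 8 could be made. With the code as a term, or within code 7 alone, the log2 fold change was -0.19 in either case and missed the threshold (edgeR adjusted p = 0.0791 and 0.0713).

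The other subunits of complex II were not called. Sdhb, the iron-sulfur subunit, had 61.0, 64.4, 57.4 and 63.4 CPM in KO libraries, against 65.8, 64.6, 67.5 and 60.8 CPM in WT libraries (log2 fold change -0.07 ± 0.05 SE, edgeR adjusted p = 0.465). Sdhc, a membrane anchor, had 45.0, 46.8, 41.7 and 48.0 CPM in KO libraries, against 46.8, 42.9, 40.5 and 43.7 CPM in WT libraries (0.06 ± 0.06 SE, adjusted p = 0.622). Sdhd, the other anchor, had 69.1, 67.5, 63.4 and 70.7 CPM in KO libraries, against 73.1, 66.9, 65.7 and 61.9 CPM in WT libraries (0.02 ± 0.06 SE, adjusted p = 0.910). In each of these 3 genes the KO and WT values overlapped. Without Sdha the complex summed to 175 ± 8.51 CPM in KO and 175 ± 7.94 CPM in WT libraries, while with it the sums were 384 ± 13 CPM in KO and 417 ± 10.5 CPM in WT libraries (SD, n = 4 each). Per length, Sdha made up 33.0 ± 1.12% of the summed RPKM of the complex in KO and 36.2 ± 1.13% in WT libraries. The share was 32.5, 33.7, 34.3 and 31.8% in KO 1, 2, 4 and 5, against 34.6, 36.7, 37.0 and 36.7% in WT 1, 2, 4 and 5, and the groups did not overlap.

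**Figure D2:**
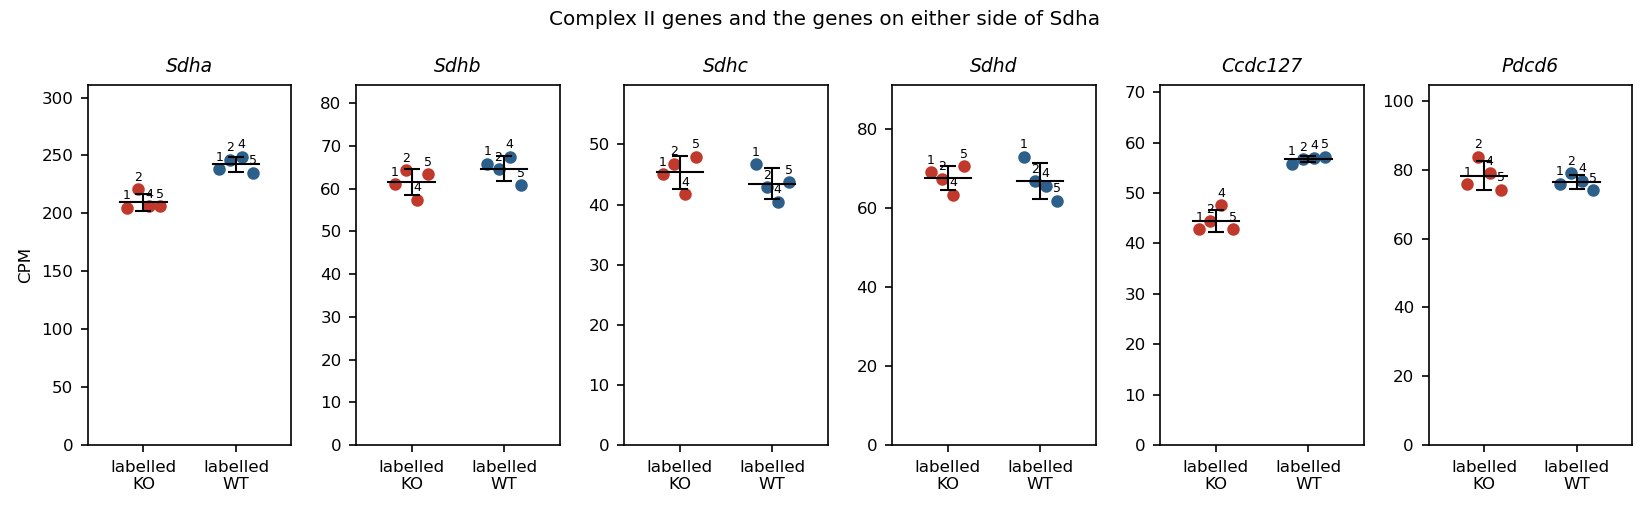
CPM of the 4 subunits of complex II and of the neighbours of Sdha, Ccdc127 and Pdcd6, in each library, with the mean and SD of each group. The KO values of Sdha (205 to 221 CPM) lie below its WT values (235 to 249 CPM), and those of Sdhb, Sdhc and Sdhd overlap.

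Sdha lies on the minus strand of chromosome 13 (Entrez 66945, positions 74322255 to 74350240 in RefSeq's annotation of GRCm38.p6, the assembly that mm10 names). Its start faces that of Ccdc127, a gene for a coiled-coil protein, on the plus strand at 74350317 to 74365783. In another annotation, GENCODE M21, only 28 bases lie between the 5′ ends of both genes. The 76 bases between both genes in RefSeq's annotation are shown because the called member and its neighbour moved in the same direction. They span chr13:74350241-74350316 and are given from RefSeq's sequence on the minus strand, 5′ to 3′ as Sdha is read, with capitals for matches to GCGCNTGCG, a core of the motif of the factor NRF1, on either strand.
Sdha upstream: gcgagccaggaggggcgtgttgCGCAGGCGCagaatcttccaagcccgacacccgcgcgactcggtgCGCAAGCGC
The stretch holds 2 such matches and none to CCGGAAG, a motif of ETS factors. In the 250 bases before the start, with both strands searched, GCGCNTGCG was found in 19 of 78 RefSeq windows (24.4%) of the 72 members that could be matched. It was found in 1297 of 11512 windows (11.3%) of genes of the count table and in 1706 of 32851 windows (5.19%) of the whole promoter set. CCGGAAG was found in 14 of the 78 windows of members (17.9%), in 14.4% of those of table genes and in 6.91% of the whole set. These are matches of letters only.

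Ccdc127, named after its values were seen, had 42.8, 44.4, 47.6 and 42.9 CPM in KO libraries, against 55.9, 56.7, 57.0 and 57.2 CPM in WT libraries. Its groups did not overlap, and the log2 fold change was -0.35 ± 0.05 (SE, edgeR adjusted p = 0.00125). Pdcd6, the neighbour on the other side of Sdha (74303121 to 74317326), had a log2 fold change of 0.03 ± 0.05 (adjusted p = 0.761). Sdha shared no exon base with another gene in GENCODE M21. In that annotation 23 of the 84 members had a protein-coding gene starting head to head within 1000 bases. Of these partners 18 were in the count table. Of the 18, 1 (Ccdc127) was called lower, where 3.84% of all genes were, and 0 were called higher, where 6.20% of all genes were.

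Complex I, the largest of the complexes, showed no called member among 45. It summed to 1463 ± 77.0 CPM in KO and 1474 ± 37.0 CPM in WT libraries (SD, n = 4 each), and the median log2 fold change was -0.00049. The 7 core subunits made in the nucleus, among them the carriers of the flavin and the iron-sulfur clusters, had a median of -0.013, and 6 of the 7 were negative. Ndufs1, the large iron-sulfur subunit, had 78.8, 79.3, 72.5 and 79.6 CPM in KO libraries, against 78.5, 76.0, 82.8 and 76.8 CPM in WT libraries. The groups overlapped, KO 4 was the lowest library, and the log2 fold change was -0.02 ± 0.05 (SE). Ndufv1, which binds the flavin, and Ndufv2 stood at -0.04 and -0.01, Ndufs7 at -0.0048, Ndufs8 at -0.07 and Ndufs3, the only positive one of the 7, at 0.09 (edgeR adjusted p from 0.437 to 0.975).

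Ndufa7, an accessory subunit, had the smallest p in complex I. It had 31.9, 31.0, 31.4 and 31.8 CPM in KO libraries, against 33.5, 34.9, 35.7 and 32.7 CPM in WT libraries. The groups did not overlap, and the log2 fold change of -0.12 ± 0.05 (SE) was not called (edgeR adjusted p = 0.159). Ndufa4, whose protein is now assigned to complex IV, had 44.3, 50.8, 40.2 and 49.9 CPM in KO libraries, against 55.1, 49.1, 54.6 and 46.1 CPM in WT libraries. Here KO 4 was lowest and the groups overlapped (-0.15 ± 0.09 SE, adjusted p = 0.374). Ndufa3, a small accessory subunit with the highest level per length in complex I (133 RPKM), had a log2 fold change of -0.00017.

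The 8 assembly factors with Ndufaf symbols, which help build complex I but are not kept in it, were low per length, at 0.874 to 11.8 RPKM. Their median log2 fold change was 0.095, with 6 of 8 positive and none called. Ndufaf6, the lowest of all members per length, had 2.04, 2.32, 2.58 and 3.38 CPM in KO libraries, against 2.64, 1.81, 1.87 and 3.16 CPM in WT libraries. Its values overlapped widely, and host 5 was the highest under each label (0.12 ± 0.23 SE, edgeR adjusted p = 0.828). The remaining 30 members counted in complex I by symbol, Ndufa4 among them, had a median log2 fold change of -0.00033.

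Complex III summed to 566 ± 28.2 CPM in KO and 565 ± 12.6 CPM in WT libraries (SD, n = 4 each), and none of its 8 members was called. Uqcrfs1, the Rieske iron-sulfur protein, had 78.2, 83.0, 77.6 and 86.8 CPM in KO libraries, against 81.2, 81.5, 78.4 and 77.3 CPM in WT libraries. The groups overlapped, with KO 5 highest (0.03 ± 0.05 SE, edgeR adjusted p = 0.760). Uqcrb, a small subunit near the ubiquinone site, had the smallest p of the complex, at a log2 fold change of 0.06 ± 0.06 (adjusted p = 0.633). Per length, Uqcrh, the hinge protein, was highest at 220 RPKM and Uqcr11 lowest at 28.7 RPKM, and their log2 fold changes were -0.04 and 0.02.

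Complex IV summed to 986 ± 39.1 CPM in KO and 961 ± 33.9 CPM in WT libraries (SD, n = 4 each). Of its 11 members 10 had a positive log2 fold change, where 5569 of all 11354 genes did, or 8 members when scaled to total library size alone. The median was 0.042, and none was called. Ndufa4, counted in complex I by its symbol, is not among the 11 and stood at -0.15. Cox6a1, the form of subunit 6A found in most tissues, had 74.2, 80.1, 70.3 and 81.1 CPM in KO libraries, against 77.3, 70.6, 66.7 and 62.8 CPM in WT libraries. The groups overlapped, and the log2 fold change was 0.14 ± 0.07 (SE, edgeR adjusted p = 0.285). Cox5a, an early subunit in the assembly, had 94.3, 101, 90.5 and 109 CPM in KO libraries, against 91.2, 94.7, 93.0 and 93.6 CPM in WT libraries. KO 5 was highest and KO 4 lowest, so that the KO values enclosed the WT values (0.08 ± 0.06 SE, adjusted p = 0.439). Cox4i1, a regulatory subunit and the most abundant of the complex per length (275 RPKM), had a log2 fold change of -0.01 ± 0.05, and Cox5b, the lowest (43.6 RPKM), one of 0.02 ± 0.08. Cox7a2 and Cox7a2l are related proteins, of which Cox7a2l helps join complexes III and IV into supercomplexes. Cox7a2l made up 58.9 ± 1.88% of their summed RPKM in KO and 58.9 ± 0.885% in WT libraries. Cox6b1 and Cox8a, further small subunits, had log2 fold changes of 0.03 and 0.04.

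Complex V summed to 2254 ± 104 CPM in KO and 2240 ± 46.1 CPM in WT libraries (SD, n = 4 each). None of its 16 members, which were placed there by symbol alone, was called. Atp5b, the catalytic beta subunit and the most abundant member of all per length (367 RPKM), had 682, 712, 634 and 742 CPM in KO libraries, against 702, 676, 695 and 672 CPM in WT libraries. Atp5a1, the alpha subunit, had 515, 511, 484 and 548 CPM in KO libraries, against 532, 508, 516 and 508 CPM in WT libraries. In both genes KO 4 was the lowest and KO 5 the highest of the 8 libraries, and the log2 fold changes were 0.01 ± 0.05 for Atp5b and -0.0046 ± 0.0450 for Atp5a1 (SE). Atp5o, which joins the catalytic head to the peripheral stalk, had 69.9, 69.9, 67.7 and 73.4 CPM in KO libraries, against 65.6, 63.8, 68.1 and 62.3 CPM in WT libraries. KO 4 overlapped WT 4, and the log2 fold change of 0.11 ± 0.04 (SE) was not called (edgeR adjusted p = 0.159). Atp5g1 and Atp5g3 encode the same ring protein, as does Atp5g2, which was not analysed here, and Atp5g1 made up 9.84 ± 0.435% of the summed RPKM of Atp5g1 and Atp5g3 in KO and 9.52 ± 0.432% in WT libraries. Atp5s, coupling factor B and no subunit of the enzyme proper, was lowest per length at 1.62 RPKM, with a log2 fold change of 0.04 ± 0.17.

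**Figure D3:**
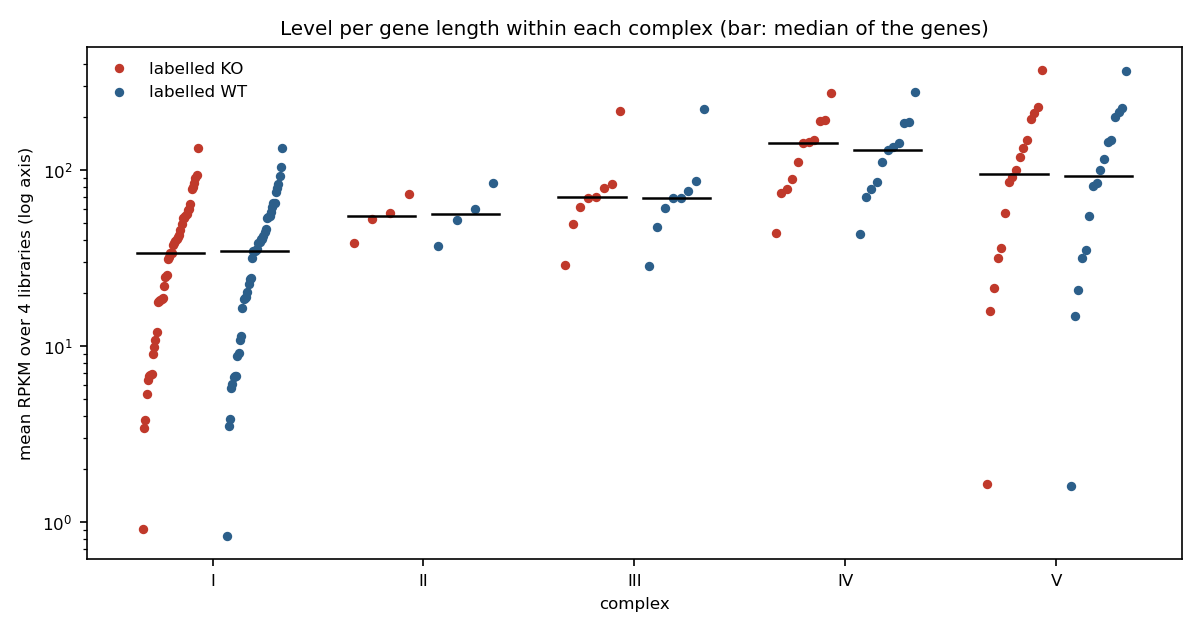
Mean RPKM of each member in KO and in WT libraries (log axis), by complex, with bars at the median of the genes. Over all 8 libraries Atp5b in complex V averages 367 RPKM, Cox4i1 in complex IV 275 RPKM, and the lowest member, Ndufaf6 in complex I, 0.874 RPKM.

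**Figure D4:**
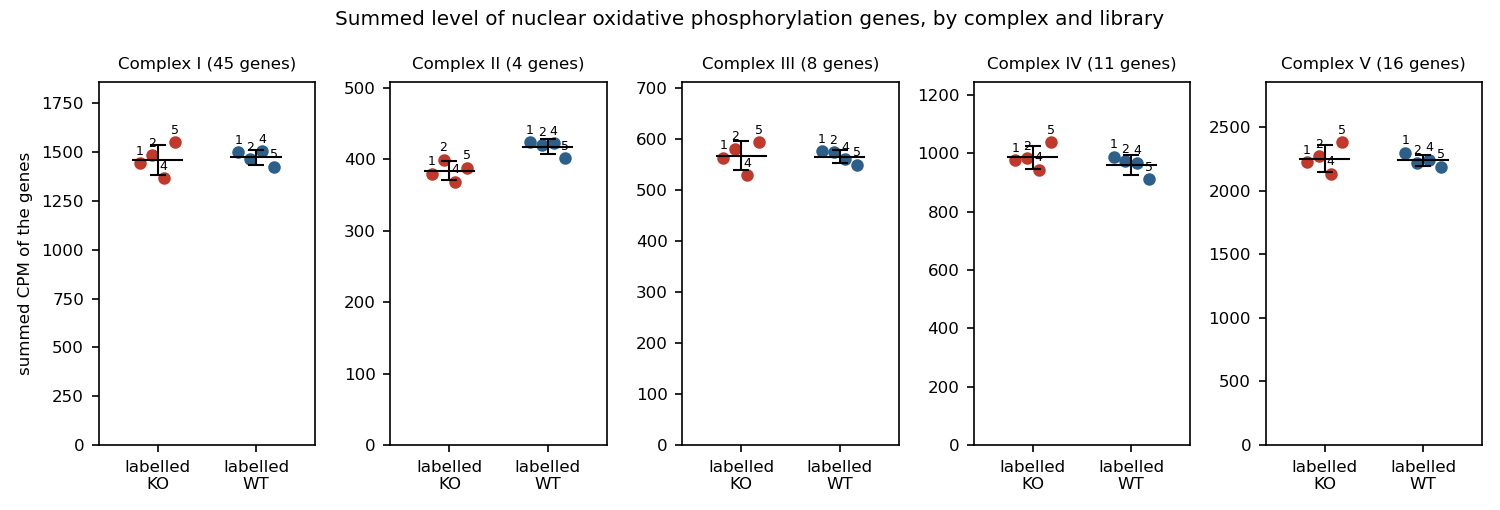
Summed CPM of each complex in each library, with the mean and SD of each group. KO and WT sums overlap in complexes I, III, IV and V, and in complex II the KO sums (369 to 399 CPM) lie below the WT sums (402 to 424 CPM).

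The members' levels also varied between libraries of the same label. KO 5 was the highest of the 8 libraries in 42 of the 84 members and the lowest in 0, whereas KO 4 was the lowest in 32 and the highest in 2. WT 5 was the lowest in 23 members. The median deviation of the members from their mean over libraries was -0.01, 0.01, -0.07 and 0.09 on the log2 scale in KO 1, 2, 4 and 5, against 0.03, 0.0031, 0.0029 and -0.05 in WT 1, 2, 4 and 5. KO 4 and KO 5 thus stood furthest apart under the same label and the same code. The 18 myeloid markers other than Ccr2 summed to 328, 577, 1030 and 751 CPM in KO 1, 2, 4 and 5. KO 4 and KO 5, at opposite ends for the members, were thus both high in these markers. The part of those cells was not tested.

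**Figure D5:**
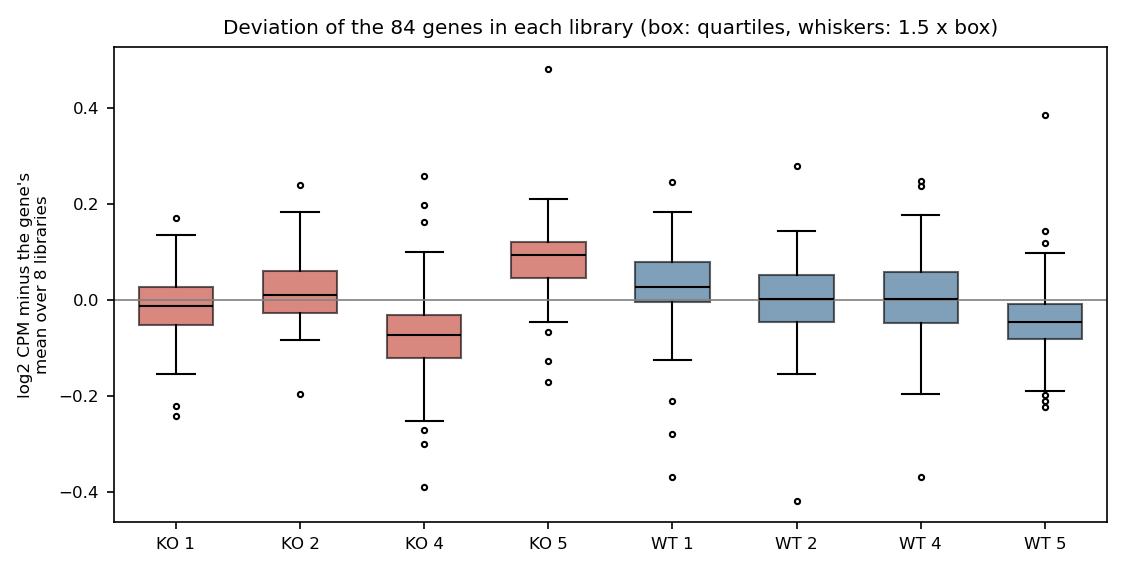
Log2 CPM of the 84 members minus each gene's mean over the 8 libraries, by library, with the median as a line, quartiles as a box, whiskers to 1.5 box lengths and members beyond them as points. The median is lowest in KO 4 (-0.07) and highest in KO 5 (0.09).

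Some members share sequence with other genes, and how the counting treated reads of more than 1 match is not given in the sources used here. In GENCODE M21, 50 of the 84 members shared no window of 81 bases, the read length, with the transcript of another gene, and 34 shared at least 1. Atp5l, a subunit of the membrane part of complex V, shared 74.4% of its windows with 8 other genes, 7 of them pseudogenes, and its level is uncertain. Atp5o, named above for its unadjusted edgeR p below 0.05, shared 37.1% with 3 other genes, 1 of them a pseudogene. This limits its level too. Exons of 29 members overlapped another gene, for 27 of them on the opposite strand, and the strand setting of the counting is not given in the sources used here.

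Of the other mitochondrial lists, 3 held 1 or more called genes. For comparison with the counts below, 6.20% of all genes were called higher and 3.84% lower. Of 43 assembly factors outside the naming rule 39 were measured, with 0 higher and 1 lower in KO. This was Sco1, a copper chaperone of complex IV (15.7, 15.2, 16.4 and 15 CPM in KO, against 17.7, 18, 18.9 and 17.5 CPM in WT, log2 fold change -0.21 ± 0.06 SE, edgeR adjusted p = 0.0456), and its call survived 1 of 8 omissions of a single library. Among 13 genes for cytochrome c, other feeders of ubiquinone and further genes of complexes III and V, 2 were higher and 0 lower. Gpd2, the mitochondrial glycerol-3-phosphate dehydrogenase that passes electrons to ubiquinone, had 35.9, 38.7, 39.8 and 38.4 CPM in KO libraries, against 29.9, 26.7, 29.5 and 29.9 CPM in WT libraries. Its groups did not overlap, and the log2 fold change was 0.40 ± 0.06 (SE, adjusted p = 0.00173). Sqrdl, a sulfide oxidising enzyme that also feeds ubiquinone, had 1.16, 1.5, 2.73 and 2.07 CPM in KO libraries, against 1.00, 0.433, 0.329 and 0.418 CPM in WT libraries (1.76 ± 0.39 SE, adjusted p = 0.0205), and the call survived 4 of the 8 omissions. KO 4 and KO 5, highest in myeloid markers, were also highest in Sqrdl, and the part of myeloid cells in its level was not tested.

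Of 18 genes of the tricarboxylic acid cycle other than the Sdh genes, all measured, 0 were higher and 1 was lower. It was Idh3b, a subunit of the NAD-dependent isocitrate dehydrogenase, with 112, 120, 115 and 127 CPM in KO libraries, against 136, 138, 140 and 126 CPM in WT libraries. KO 5 and WT 5 overlapped, the log2 fold change was -0.19 ± 0.05 (SE, edgeR adjusted p = 0.0452), and the call survived 2 of the 8 omissions. None of 15 measured genes for upkeep and expression of the mitochondrial genome was called, and neither was any of 13 measured nuclear regulators of respiratory genes, whose median log2 fold changes were -0.0074 and -0.06. The 13 subunits encoded by mitochondrial DNA were not analysed here.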

How the data were processed

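The authors deposited whole-number counts per gene, not normalised, beside Entrez identifiers and gene lengths, and all 8 library columns were used. Per the submitters' processing notes, STAR and mm10 were used; how reads were counted, with which annotation and strand setting, is not given in the sources. Per the labels' protocols, a stranded TruSeq kit was used, with single-end sequencing over 81 bases. The lowest fourth-highest CPM of any gene was 0.987, so every gene in the table had about that level or more in at least 4 libraries. CPM were computed on TMM library sizes, and RPKM with the deposited gene lengths.

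Genes were tested with edgeR 4.0.16 in R 4.3.3 (TMM, filterByExpr, which kept all 11354 genes, estimateDisp, glmQLFit and glmQLFTest on the label alone), with Benjamini-Hochberg adjustment over all genes. The common biological coefficient of variation was 0.116. Standard errors were taken from F, as |log2 fold change| over its square root, and the script was tested on simulated data. Log2 CPM used a prior count of 2. Alternatives were RLE factors, total library size, other filters, DESeq2 1.42.0, limma-voom 3.58.1 with quality weights, the host number as a block, the description code as a term, code 7 alone, leaving out each library, and leaving out KO 2 and KO 4 together. Figures used Python 3.11.15 and matplotlib 3.10.9.

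The members, lists and alternatives were chosen with earlier results of these data known. Genes named are called members, the members of smallest p and of highest and lowest RPKM in each complex, core subunits, paralogue pairs, Nlrp6 and called genes of the other lists. Ccdc127, Pdcd6, Atp5l, Csf1r, Ccr2, Itgax and Zbtb46 fall outside this rule and were picked with their values known. The same holds for Tyrobp, Fcer1g, Klrb1c, Klrb1b, Klrk1, Kit and Il22. All 84 members were matched by Entrez identifier to RefSeq's GRCm38.p6 gene table, and promoter sequence is RefSeq's. The NRF1 core was shortened by 1 base after matches to a longer form had been seen. Of the members covered by the rule for named genes, 1 is not reported singly here and is counted in every total.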

Additional observations from a re-analysis of the deposited data

Results flagged for a closer look

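Among the named members and the complex sums, 76 groups of 4 libraries were examined for a library whose gap to the nearest other library, divided by the group's range, passed Dixon's 95% critical value. Chance gives such a gap in about 1 in 20 groups, and 8 groups showed one. Sdha had 221 CPM in KO 2, against 205 to 206 CPM in the other KO libraries, and this value was the nearest to the WT libraries. Of the 8 gaps, 3 were high values of KO 5, in subunits of complexes IV and V. Cox6b1 had 103 CPM there, against 93.0 to 94.4 CPM in the other KO libraries. Cox7a2 had 64.3 CPM, against 56.6 to 57.1 CPM. Atp5g3 had 152 CPM, against 138 CPM in each of the other KO libraries. Ndufs1 had a low 72.5 CPM in KO 4, against 78.8 to 79.6 CPM. Among WT libraries, Ndufs3 had 20.8 CPM in WT 5, against 22.8 to 23.2 CPM, and Uqcrb had 25.1 CPM in WT 2, against 23.2 to 23.5 CPM. The complex II sum was 402 CPM in WT 5, against 421 to 424 CPM in the other WT libraries.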

How the results depend on the processing

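Csf1r, Tyrobp and Fcer1g were not followed over the alternative fits. The called genes that were followed (Sdha, Nlrp6, Ccdc127, Sco1, Gpd2, Sqrdl and Idh3b) did not change sign under the 18 alternatives. Of the 33 named members 21 changed sign in at least 1 of them, and 0 of these 21 were called in any. The members' median was -0.0038 with total library size, against 0.013 with TMM. Sdha was called in 16 of them, at log2 fold changes of -0.24 to -0.19 and adjusted p of 1.2e-05 to 0.0791. With the description code as a term 0 members were called lower, as within code 7 alone (0 members), and 249 of all genes were called lower with the term, against 436 in the fit on the label alone; the cause was not tested. Leaving out 1 library gave 0 members called higher and 1 called lower each time. Over the same fits the whole table gave 516 to 709 genes called higher and 276 to 509 called lower. The lowest counts were 276 without KO 1 and 277 without WT 1. DESeq2 called 653 genes lower and 926 higher, within 1.5 times of the edgeR counts. The members' median log2 fold change ran from -0.019 to 0.029 over the fits without 1 library, within the library spread of 0.063. Correlations of deviations from the group means, between the KO and WT libraries of a host number, were -0.0601, 0.182, -0.138 and 0.256 for hosts 1, 2, 4 and 5. Only for host 5 did the KO library correlate best with its own number. Deviations taken from means of 4 libraries are not independent, so these values cannot decide whether host numbers pair the libraries. With the host number as a replicate block, Sdha stood at -0.21 (adjusted p = 0.0211), 1 member was called lower, and Sco1, Sqrdl and Idh3b were not called (adjusted p = 0.0739, 0.0757 and 0.107). Ccdc127 and Gpd2 were called in all 18 alternatives. Sequence shared with other genes, antisense partners and low counts, as for Ndufaf6, limit single values.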
